A study of Mus musculus with 3 samples.

Results

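MHC class II molecules present peptides taken up and cut in lysosomes to CD4 T cells. They are made in quantity by dendritic cells, B cells and macrophages, and the absorptive epithelium of the small intestine is known to make them as well. The genes described here were 7 of the 31053 genes counted, chosen by symbol from a fixed list and not by their values. H2-Aa and H2-Ab1 encode the alpha and beta chain of the I-A molecule. H2-Eb1 encodes the beta chain of I-E, whose alpha chain is not made in C57BL/6 mice. Cd74, the invariant chain, fills the groove of a new molecule and guides it to the endosome, where the heterodimer encoded by H2-DMa and H2-DMb1 exchanges the remaining fragment for a peptide. Ciita is the class II transactivator, a coactivator without which the other genes are barely transcribed, held at their promoters by the factors RFX and NF-Y.

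The levels came from single-cell RNA-seq of the duodenum, jejunum and ileum of wild-type C57BL/6N mice, untreated, male and 12 weeks old. Each segment was 1 library, made from the pooled epithelial fraction of 3 mice that also held intraepithelial immune cells, and live cells were sorted by exclusion of propidium iodide with no marker of cell type. With 1 library a segment there was no replicate of a segment, so segments were compared with counting intervals only and cell types were compared over the 3 libraries. After the study's filters, 16686 cells remained, 4255 from duodenum, 4360 from jejunum and 8071 from ileum. The ileal library was the shallowest, with a median of 5536 unique molecular identifiers (UMIs, each 1 captured transcript) a cell against 12424 and 11737, and its median share of mitochondrial UMIs was 11.1% against 27.1% and 27.2%. Of these cells, 13181 (79.0%) fell in epithelial clusters and 2139 (12.8%) in immune clusters named by their markers, and the rest stayed unnamed.

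The 3 chains of I-A and I-E and both DM genes lie together on chromosome 17 in the GRCm38 build. In GENCODE, H2-Aa spans chr17:34282744-34287823 on the minus strand, and H2-Ab1 spans chr17:34257689-34269419, H2-Eb1 chr17:34305867-34316674, H2-DMa chr17:34119541-34139101 and H2-DMb1 chr17:34153072-34160230 on the plus strand. H2-DMb1 has a near-identical neighbour, H2-DMb2, and the split of reads between that pair is uncertain. Class II promoters share an X element, bound by RFX, and a Y element, bound by NF-Y, through which Ciita acts, and these stretches are shown because members of the group carry them in common. The windows were RefSeq promoters of GRCm38.p6, with the letters CTNGNAACT (X) and TGATTGG (Y) in capitals, searched on both strands. These letters were chosen after reading the same promoters.
H2-Aa, chr17:34287855-34287919, minus strand: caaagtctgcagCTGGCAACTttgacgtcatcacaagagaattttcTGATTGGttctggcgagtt
H2-Eb1, chr17:34305761-34305824, plus strand: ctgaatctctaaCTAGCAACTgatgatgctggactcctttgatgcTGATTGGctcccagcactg
H2-DMb1, chr17:34153094-34153123, plus strand, X element only: CTAGTAACTgatgatgctaggctgattcac

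Counted from the RefSeq starts, the X element began 84 bases before the start of H2-Aa, 94 before that of H2-Eb1 and 97 before that of H2-DMb1. A stretch of 25, 24 and 25 bases separated it from the Y element. An X followed by a Y at a spacing of 10 to 35 bases occurred in 5 of 32851 promoter windows (0.0152%), of which these were 3 and the others were 1700048F04Rik and BC051142, while X alone occurred in 3.47% and Y alone in 7.23%. The RefSeq start of H2-DMb1, chr17:34153191, lies after its GENCODE start, so its X element falls inside the gene as GENCODE spans it. The promoter window of H2-DMb1 overlapped 1 annotated exon. Neither window of H2-DMa held either set of letters. H2-Ab1, Cd74 and Ciita had no entry in the promoter table.

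Enterocytes, the absorptive cells that cover the villus, carried class II transcripts in all 3 libraries. Cd74 was the most abundant member by UMIs, followed by H2-Ab1, H2-Aa and H2-Eb1, with the DM genes and Ciita well below. These are 3′ UMI counts, which do not scale with transcript length, although capture may differ between genes. Cd74 stood at 1.48 UMIs per 10000 in duodenal, 1.52 in jejunal and 6.15 in ileal enterocytes. H2-Ab1 stood at 0.810, 0.628 and 2.05 in the same order, and H2-Aa at 0.372, 0.255 and 1.52. The ileal enterocytes were highest for each of these chains, and the duodenum and jejunum lay near each other. H2-Eb1 followed with 0.293, 0.241 and 0.916, although its chain has no partner in this strain. Levels of H2-DMa were 0.0507, 0.0515 and 0.135, and those of H2-DMb1 were 0.0549, 0.0293 and 0.148. Ciita stood at 0.050 in duodenum, 0.0197 in jejunum and 0.0439 in ileum. Ciita lies at chr16:10480059-10528418 and Cd74 at chr18:60803848-60812652, both on the plus strand. The counts behind these sums came from 3221, 3320 and 4087 cells, and the 7 genes together gave 12571, 11981 and 35771 UMIs.

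**Figure D1:**
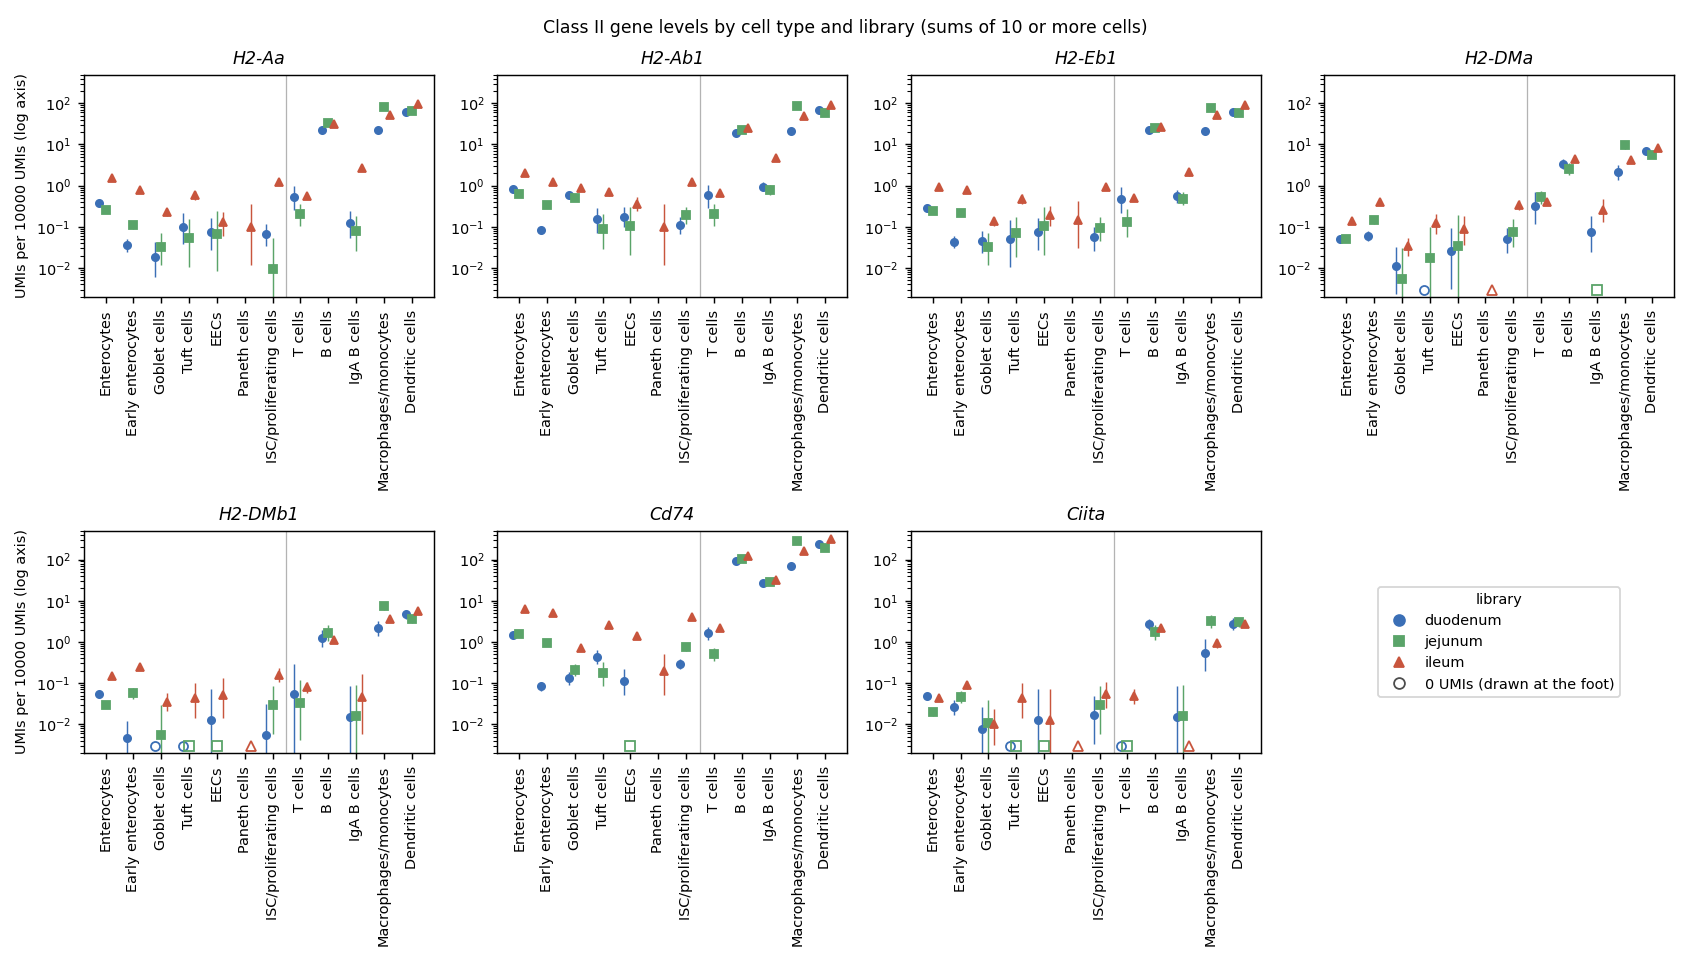
Level of each of the 7 genes (UMIs per 10000 UMIs, log axis) in 7 epithelial and 5 immune cell types, 1 point per library with its exact 95% Poisson interval, for sums of 10 or more cells; open points mark 0 UMIs. Cd74 in enterocytes sat at 1.48, 1.52 and 6.15, below B cells at 92.9, 106 and 122 and above goblet cells at 0.131, 0.210 and 0.709.

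Class II levels in enterocytes stood far below those of the professional presenting cells and above those of most other epithelial types. In the ileum Cd74 was at 122 UMIs per 10000 in B cells, 162 in macrophages/monocytes and 312 in dendritic cells. Against enterocytes over the 3 libraries, all 7 genes were higher in each of these 3 types (edgeR's quasi-likelihood test, blocked by library, with p-values adjusted after Benjamini-Hochberg over 12949 genes). The share of all genes called higher was 25.5% in B cells, 23.3% in macrophages/monocytes and 26.3% in dendritic cells. In B cells the log2 difference was 4.47 ± 0.83 (SE) for Cd74 (adjusted p = 2.69e-05) and 4.74 ± 0.44 for Ciita (adjusted p = 2.44e-10). In dendritic cells it reached 6.68 ± 0.67 for H2-Eb1 (adjusted p = 9.29e-10).

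IgA B cells, which secrete antibody and are known to shut class II off as they mature, formed a case of their own. Cd74 stood at 26.8, 28.4 and 32.7 UMIs per 10000 in duodenum, jejunum and ileum, below B cells in each library. After TMM scaling its difference from B cells was -0.23 on the log2 scale (edgeR, adjusted p = 0.953). The scaling factors were 0.489, 0.425 and 0.509 in IgA B cells and 1.48, 1.44 and 1.28 in B cells. The small fitted difference rests on them. H2-Aa stood at 0.122 and 0.0786 in duodenum and jejunum and at 2.68 in the 17 ileal cells. Against B cells Ciita was lower by 5.95 on the log2 scale (adjusted p = 4.21e-06) and H2-Ab1 by 2.30 (adjusted p = 0.00465), whereas against enterocytes only Cd74 (4.24 ± 0.82, adjusted p = 7.14e-05) and H2-Eb1 (1.48 ± 0.56, adjusted p = 0.0287) were higher, 2 of 7 where 17.5% of all genes were, the latter lost without the jejunum (adjusted p = 0.107) or TMM scaling (adjusted p = 0.121). Cd74 thus made up 93.9%, 95.4% and 76.8% of the class II UMIs of IgA B cells.

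The order of Cd74 levels by the fit ran from dendritic cells through macrophages/monocytes, B cells and IgA B cells to enterocytes, then early enterocytes, T cells, ISC/proliferating cells, tuft cells, goblet cells and enteroendocrine cells (EECs), with Paneth cells, which gave 1 sum, left aside. The only neighbours in this order that differed were IgA B cells and enterocytes (adjusted p = 7.14e-05), and the other adjusted p-values between neighbours lay between 0.104 and 0.953. For H2-Ab1 the order was the same down to enterocytes, and goblet cells came next. There, too, a single pair of neighbours differed, B cells and IgA B cells (adjusted p = 0.00465), and enterocytes and goblet cells did not pass the threshold (adjusted p = 0.218).

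Early enterocytes, the lower-villus cells marked by Gpx2, Dmbt1, Cps1, Ccl25 and Oat, had lower levels of both I-A chains than enterocytes in each library, with calls for both that rested on the duodenum. In the duodenum H2-Ab1 was at 0.0832 UMIs per 10000 and H2-Aa at 0.0354. They stood at 0.339 and 0.113 in jejunum and at 1.21 and 0.778 in ileum. Each value lay below that of enterocytes from the same library. H2-Ab1 was lower by 1.87 ± 0.55 on the log2 scale (edgeR, adjusted p = 0.00689) and H2-Aa by 2.11 ± 0.70 (adjusted p = 0.017), 2 of 7 where 24.4% of all genes were lower, a share near that background. Cd74, at 0.0832, 0.954 and 5.05, gave -1.52 ± 0.74 (adjusted p = 0.104), and H2-Eb1 gave -1.23 ± 0.54 (adjusted p = 0.0689). H2-DMa was above enterocytes in each library, at 0.0604, 0.146 and 0.412, but the difference of 0.75 ± 0.45 did not pass (adjusted p = 0.193), and Ciita gave 0.00 ± 0.43. H2-DMb1 went both ways, at 0.00456 (4 UMIs) against 0.0549 in duodenum and above enterocytes in jejunum and ileum. Both calls were lost without the duodenal library, where the gap was widest, with -1.20 for H2-Ab1 (adjusted p = 0.0935) and -1.41 for H2-Aa (adjusted p = 0.192), and without TMM scaling (adjusted p = 0.052 and 0.078). The H2-Aa call was also lost without the jejunum (adjusted p = 0.057) and by DESeq2 (adjusted p = 0.0536).

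Goblet cells, which secrete mucus, held H2-Ab1 as their most abundant class II gene in all 3 libraries. H2-Ab1 stood at 0.602, 0.511 and 0.881 UMIs per 10000 in duodenum, jejunum and ileum, while H2-Aa stood at 0.0187, 0.0323 and 0.226 and Cd74 at 0.131, 0.210 and 0.709. Against enterocytes 6 of the 7 genes were lower, where 26.2% of all genes were. The differences were -3.38 ± 0.80 for Cd74 (edgeR, adjusted p = 0.00107), -3.34 ± 0.80 for H2-Aa (adjusted p = 0.00109), -2.95 ± 0.62 for H2-Eb1 (adjusted p = 0.00028), -2.50 ± 0.77 for H2-DMb1 (adjusted p = 0.00968), -2.30 ± 0.64 for H2-DMa (adjusted p = 0.00446) and -2.26 ± 0.66 for Ciita (adjusted p = 0.0064). H2-Ab1 was the exception, at -0.86 ± 0.54 (adjusted p = 0.218). It was higher in goblet cells than in tuft cells by the fit (tuft minus goblet -2.02, adjusted p = 0.0118), than in EECs (-2.59, adjusted p = 0.00266), than in ISC/proliferating cells (-1.73, adjusted p = 0.0133) and than in T cells (-1.62, adjusted p = 0.0346). None of the other 6 members passed the threshold between goblet cells and tuft cells or EECs. The Ciita call against enterocytes was lost without the duodenum (-1.73, adjusted p = 0.0759) or the ileum (-1.86, adjusted p = 0.114) and without cells holding immune marker UMIs (adjusted p = 0.0831), and the other 5 held without any 1 library.

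The balance of the I-A chains differed between enterocytes and goblet cells. Enterocytes had 2.18 UMIs of H2-Ab1 per UMI of H2-Aa in the duodenum (95% interval 2.05 to 2.32), 2.47 in the jejunum (2.30 to 2.65) and 1.35 in the ileum (1.30 to 1.40). In goblet cells the ratio was 32.2 (13.5 to 101), 15.8 (7.01 to 44.2) and 3.90 (3.17 to 4.84), and in none of the 3 libraries did the intervals meet. B cells stood at 0.820, 0.707 and 0.807, macrophages/monocytes at 0.909, 1.06 and 0.920 and dendritic cells at 1.14, 0.906 and 0.959, so that the 2 chains were near parity in these 3 types. IgA B cells had an excess of H2-Ab1, with 7.75, 10 and 1.76. Early enterocytes gave 2.35, 2.99 and 1.55, whereas ileal tuft cells (1.2, 0.852 to 1.69) and ileal ISC/proliferating cells (0.995, 0.816 to 1.21) had intervals that held parity. H2-Ab1 made up 73.9%, 63.3% and 43.4% of the class II UMIs of goblet cells against 26.1%, 22.9% and 18.7% in enterocytes. The intervals cover counting error only.

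**Figure D2:**
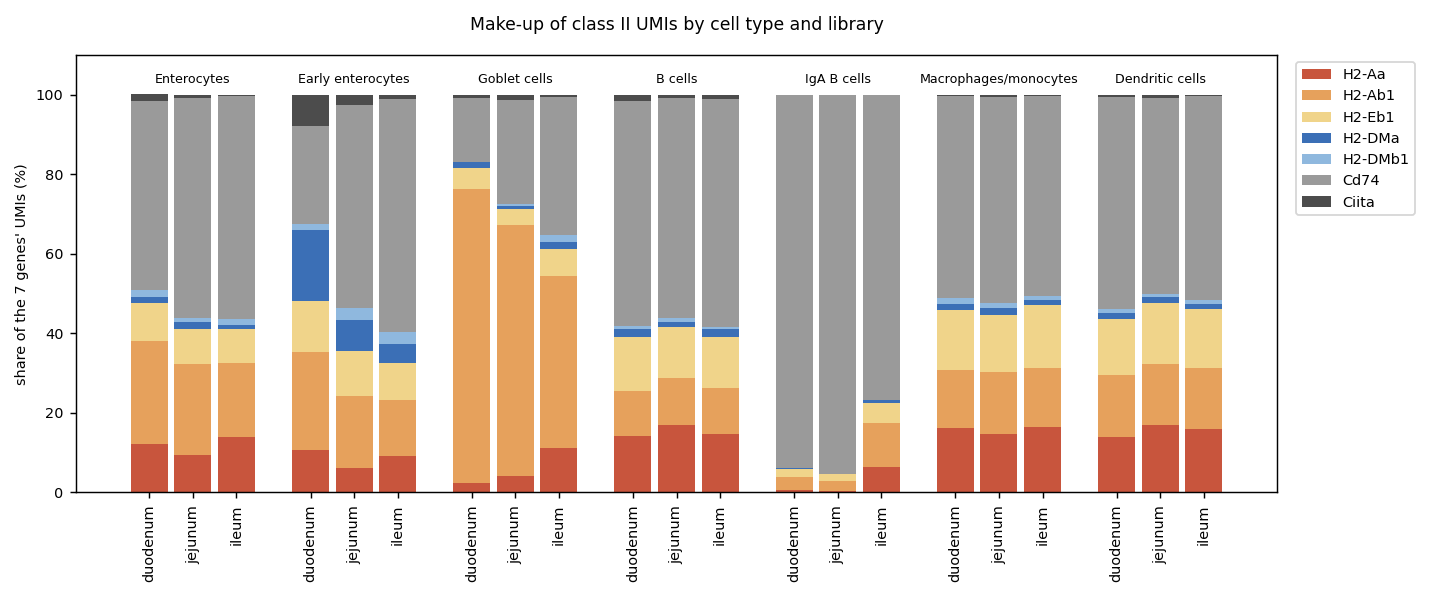
Share of the 7 genes' UMIs taken by each gene (%, stacked bars, 1 bar per library) in 3 epithelial and 4 immune cell types. H2-Ab1 took 73.9%, 63.3% and 43.4% in goblet cells, H2-DMa took 18.0%, 7.80% and 4.80% in early enterocytes, and Cd74 took 93.9%, 95.4% and 76.8% in IgA B cells.

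The rarer epithelial types held few class II UMIs. Tuft cells, chemosensory cells of the villus and crypt, had 5 of 7 genes lower than enterocytes, where 29.8% of all genes were, EECs had 6 (30.7%), ISC/proliferating cells had 4 (36.0%) and Paneth cells had 1 (13.4%). Cd74 gave -2.60 ± 0.79 in tuft cells (edgeR, adjusted p = 0.00699), -3.94 ± 0.86 in EECs (adjusted p = 0.000249) and -2.27 ± 0.76 in ISC/proliferating cells (adjusted p = 0.0107). H2-DMa did not pass in any of the 4 types. Without the duodenum the calls of H2-Aa, H2-Eb1 and Cd74 in ISC/proliferating cells were lost (adjusted p = 0.114, 0.0744 and 0.0744), as was the H2-Ab1 call in Paneth cells (0.0631), H2-Aa and H2-DMb1 in tuft cells (0.0828 and 0.0694) and Ciita and H2-DMb1 in EECs (0.121 and 0.0846). Without the jejunum the Cd74 call in tuft cells was lost (adjusted p = 0.066), whereas H2-Ab1 held in tuft cells, EECs and ISC/proliferating cells without any 1 library. Without TMM scaling Cd74, H2-Aa, H2-Eb1 and H2-DMb1 were lost in tuft cells (adjusted p = 0.0692, 0.107, 0.0789 and 0.152), Cd74, H2-Aa and H2-Eb1 in ISC/proliferating cells (0.187, 0.155 and 0.24) and Ciita and H2-DMb1 in EECs (0.204 and 0.267). By DESeq2 the calls of Cd74 and H2-Eb1 in ISC/proliferating cells (adjusted p = 0.0704 and 0.0601), Ciita and H2-DMb1 in EECs (0.0795 and 0.0736) and H2-Ab1 in Paneth cells (0.118) were lost. A few cells carried much of what was seen in these types. A single ileal ISC/proliferating cell, at 426 class II UMIs per 10000, held 53.7% of that sum and a single duodenal one 55.6%, and 2 ileal tuft cells held 48.6%. The ISC/proliferating cells also held 0.854, 12.8 and 19.0 UMIs of immune markers per 10000, and the part of these cells in the result was not tested. In the 30 ileal cells of this class with no such UMI, Cd74 was at 2.51 against 4.00 in all 92. Dendritic cell RNA at the level of that marker list there (1.18%) would give 3.69. This estimate can overshoot. In T cells of duodenum, jejunum and ileum the same list would give 10.6, 25.4 and 17.2, where 1.64, 0.504 and 2.20 were measured. The ileal ISC/proliferating cells also held the T cell markers at 5.25% of their level in T cells. Paneth cells numbered 24 and entered the test with the 11 ileal cells alone.

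Within the ISC/proliferating class, the cluster led by the stem cell genes Olfm4, Gkn3, Ascl2 and Lgr5 held Cd74 at 0.153, 1.21 and 3.04 UMIs per 10000 in duodenum, jejunum and ileum. It numbered 36, 29 and 48 cells. The ileum was again highest and the duodenum lowest.

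T cells served as the type that should lack class II in mice. Their class II level was 3.60, 1.60 and 4.44 UMIs per 10000 for the 7 genes together, against 3.11, 2.74 and 11 in enterocytes. In the duodenum a single T cell held 63.2% of the T cell UMIs. H2-DMa was higher in T cells than in enterocytes by 1.27 ± 0.53 (edgeR, adjusted p = 0.0369), 1 of 7 where 25.9% of all genes were higher, a call lost without the jejunum (0.78, adjusted p = 0.256). H2-Ab1, H2-Eb1 and Cd74 were lower, 3 of 7 where 35.4% were, a share near that background. The difference was -2.47 ± 0.63 for H2-Ab1 (edgeR, adjusted p = 0.00108). The calls of H2-Eb1 and Cd74 were lost without jejunum (adjusted p = 0.157 and 0.156) or ileum (0.315 and 0.207). All 3 were lost without TMM scaling (adjusted p = 0.0633 for H2-Ab1, 0.519 for H2-Eb1 and 0.341 for Cd74). The ileal T cells held the dendritic cell markers at 5.50% and the B cell markers at 3.74% of the level in those types.

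Since depth differed between libraries, the share of cells with a UMI was read after thinning each cell to 2000 UMIs. Cd74 was then seen in 12.2% of duodenal (exact binomial 95% interval 11.1 to 13.4), 14.2% of jejunal (13 to 15.4) and 42.4% of ileal enterocytes (40.9 to 44.0). T cells gave 6.25%, 3.96% and 15.8%, so that enterocytes stood above this background in each library, though the duodenal interval of the 32 T cells (0.766 to 20.8) spanned the enterocyte value. Goblet cells gave 3.59%, 4.67% and 10.1% for Cd74, below the T cells in duodenum and ileum and within their interval in jejunum (1.09 to 9.83), so that this share did not exceed the background level. For H2-Ab1 the goblet cells gave 14.4%, 14.7% and 16.2% against 3.12%, 0% and 6.43% in T cells (0 of 101 jejunal T cells, which allows a share of up to 3.59%), and the intervals were apart in jejunum and ileum and overlapped in duodenum. Before thinning, any of the 7 genes was seen in 52.4%, 48.4% and 70.5% of enterocytes and in 40%, 39.8% and 52.7% of T cells, at median depths of 12066, 12052 and 6306 UMIs in enterocytes and 4089, 4617 and 4244 in T cells. Thinning left out 53, 28 and 212 enterocytes and 3, 7 and 21 T cells.

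Class II transcripts were spread unevenly over enterocytes. No class II UMI was found in 47.6%, 51.6% and 29.5% of them, and 9.84%, 9.61% and 26.3% held 10 or more. The 10% of cells with the highest level held 69.7%, 71.0% and 45.8% of the UMIs. Low and high cells were thus found in every segment, and the ileum had the larger fraction of high cells. Cd74 was seen more often in cells that also held H2-Ab1. After thinning to 2000 UMIs, Cd74 was seen in 41.1%, 51.1% and 88.0% of enterocytes with H2-Ab1 and in 8.31%, 10.1% and 24.6% of those without. Across cells of 1 library the Pearson correlation with Cd74 was 0.65, 0.69 and 0.78 for H2-Ab1, 0.36, 0.31 and 0.34 for H2-DMb1, 0.26, 0.25 and 0.28 for H2-DMa and 0.20, 0.11 and 0.18 for Ciita. These values describe cells that share a library and differ in depth.

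Between segments, 6 of the 7 genes stood more than 2-fold higher in ileal than in duodenal enterocytes, where 13.5% of 10992 genes did, and all 7 stood more than 2-fold higher than in jejunal enterocytes, where 11.6% of 10778 did. The folds over duodenum were 4.16 for Cd74 (exact 95% interval 4.04 to 4.28), 4.09 for H2-Aa (3.86 to 4.34), 3.12 for H2-Eb1 (2.92 to 3.34), 2.70 for H2-DMb1 (2.30 to 3.18), 2.65 for H2-DMa (2.24 to 3.15) and 2.53 for H2-Ab1 (2.43 to 2.64). Ciita gave 0.877 (0.703 to 1.09), and over 9 other settings it lay on either side of 1, from 0.641 to 1.53. Over jejunum the folds ran from 2.23 for Ciita (1.69 to 2.95) to 5.97 for H2-Aa (5.6 to 6.38). Ciita stayed past 2-fold over jejunum in 5 of the 9 other settings (1.64 to 5.13) and H2-DMb1 over duodenum in 8 of 9 (1.96 to 3.96), whereas the other members did so in every setting run. The intervals cover counting error, and segment cannot be told apart from library here. The share of barcodes that passed the filters also differed between segments, and its part in these folds was not tested. The lower mitochondrial share of the ileum moved with this difference, and against non-mitochondrial UMIs alone the 7 genes together stood 2.97-fold over duodenum in place of 3.53-fold and 3.38-fold over jejunum in place of 4.00-fold.

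In early enterocytes the folds of ileum over duodenum were larger than in enterocytes for each of the 7 genes, a difference between types that was not tested. All 7 genes were more than 2-fold higher in the ileum than in the duodenum, where 8.59% of genes were, with 60.7-fold for Cd74 (48.1 to 77.5), 53.5-fold for H2-DMb1 (20.6 to 198), 22.0-fold for H2-Aa (15.4 to 32.6), 18.6-fold for H2-Eb1, 14.5-fold for H2-Ab1, 6.81-fold for H2-DMa and 3.40-fold for Ciita (2.13 to 5.64). The duodenal value behind the largest fold was 73 UMIs of Cd74 in 386 cells. That behind the fold of H2-DMb1 was only 4 UMIs, so this fold is poorly set. Over jejunum 6 of 7 were, where 7.54% of genes were, with 5.29-fold for Cd74 (4.90 to 5.73). There H2-DMb1 and Ciita had larger folds in enterocytes, and H2-Eb1 was about equal (3.80 in enterocytes, 3.77 in early enterocytes). In goblet cells H2-Ab1 was 1.46-fold over duodenum (1.22 to 1.76) and 1.72-fold over jejunum (1.38 to 2.17), and H2-Aa, H2-Eb1 and Cd74 were past 2-fold in both, 3 of the 4 members with enough UMIs, where 6.79% and 3.91% of genes were.

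**Figure D3:**
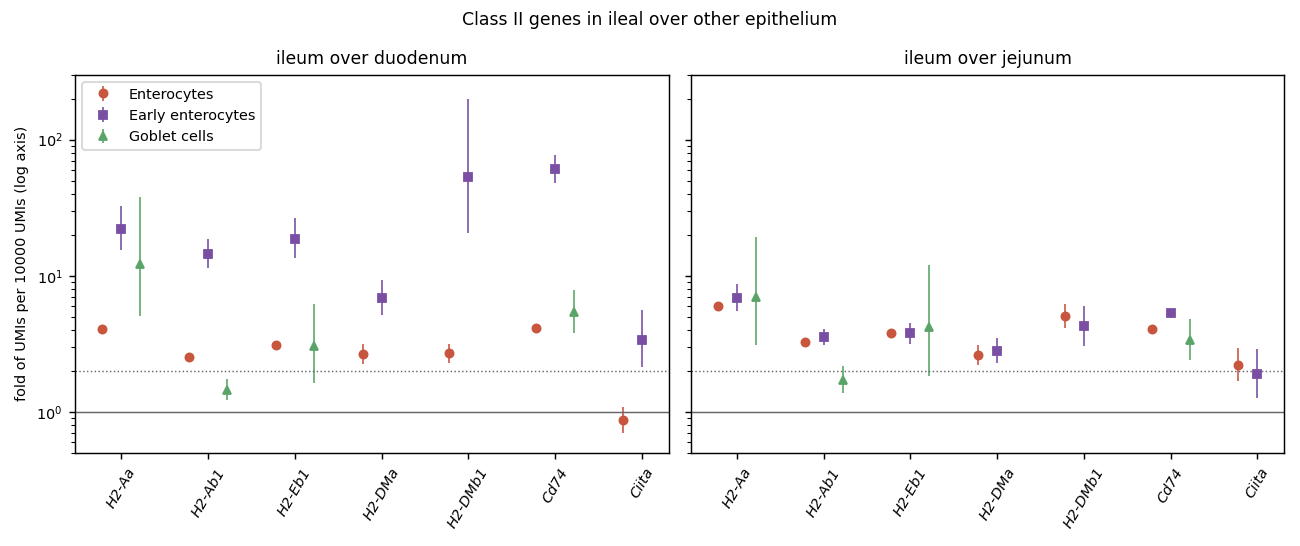
Fold of ileum over duodenum (left) and over jejunum (right) in UMIs per 10000 UMIs (log axis) for each gene in 3 epithelial types, with exact 95% intervals for counting error and the dotted line at 2-fold. Cd74 stood at 4.16 in enterocytes and 60.7 in early enterocytes over duodenum, and Ciita in enterocytes lay at 0.877.

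The ileal excess differed between enterocyte clusters. In the ileum Cd74 was at 15.9 UMIs per 10000 in the cluster led by Cyp2c29, Paqr9 and Slc2a2 and at 15.5 in that led by Pck1, Slc5a12 and Pdk4. It was at 3.01 and 1.48 in the clusters led by the tip genes Slc28a2 and Ada and by Nt5e. In the duodenum the same 4 clusters gave 1.65, 0.418, 1.17 and 0.761. A cluster led by interferon-response genes (Ifit3, Ifi44, Rsad2), with 241 of its 350 cells from the duodenum, gave 1.61, 0.790 and 3.13 in duodenum, jejunum and ileum, close to or below the other enterocytes of each library. The unnamed cluster led by Gm26917, Fgf15 and Fabp6, the latter 2 genes of ileal bile acid handling, held Cd74 at 8.79 in its 640 ileal cells.

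Along the villus, enterocytes and early enterocytes were ordered within each library by a score of tip genes minus bottom genes, in 10 equal bins. H2-DMa and Ciita were lower in the highest bin than in the lowest in each library. The chains and Cd74 peaked between these ends in bins whose lower ones held the early enterocytes. In the ileum Cd74 rose from 5.52 UMIs per 10000 in the lowest bin to 8.95 in bin 4 and dropped to 2.12 in the highest. H2-Ab1 went from 1.33 to 3.23 in bin 4 and to 0.559 at the tip, and H2-Aa from 0.891 to 2.43 and 0.352. H2-DMa was highest in the lowest bin, at 0.413, and stood at 0.0166 in the highest. Ciita was highest in bin 2 of the ileum, at 0.105 against 0.101 in the lowest bin. The duodenum started lower, with Cd74 at 0.102 in the lowest bin, 1.85 in bin 4 and 0.759 in the highest, and its H2-Ab1 peaked only in bin 9, at 0.968. Duodenal H2-DMa and Ciita also peaked in bin 4, at 0.0860 and 0.0842, up from 0.0711 and 0.0292 in the lowest bin. In the jejunum Cd74 moved less, from 1.02 through 1.79 in bin 2 to 1.10.

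**Figure D4:**
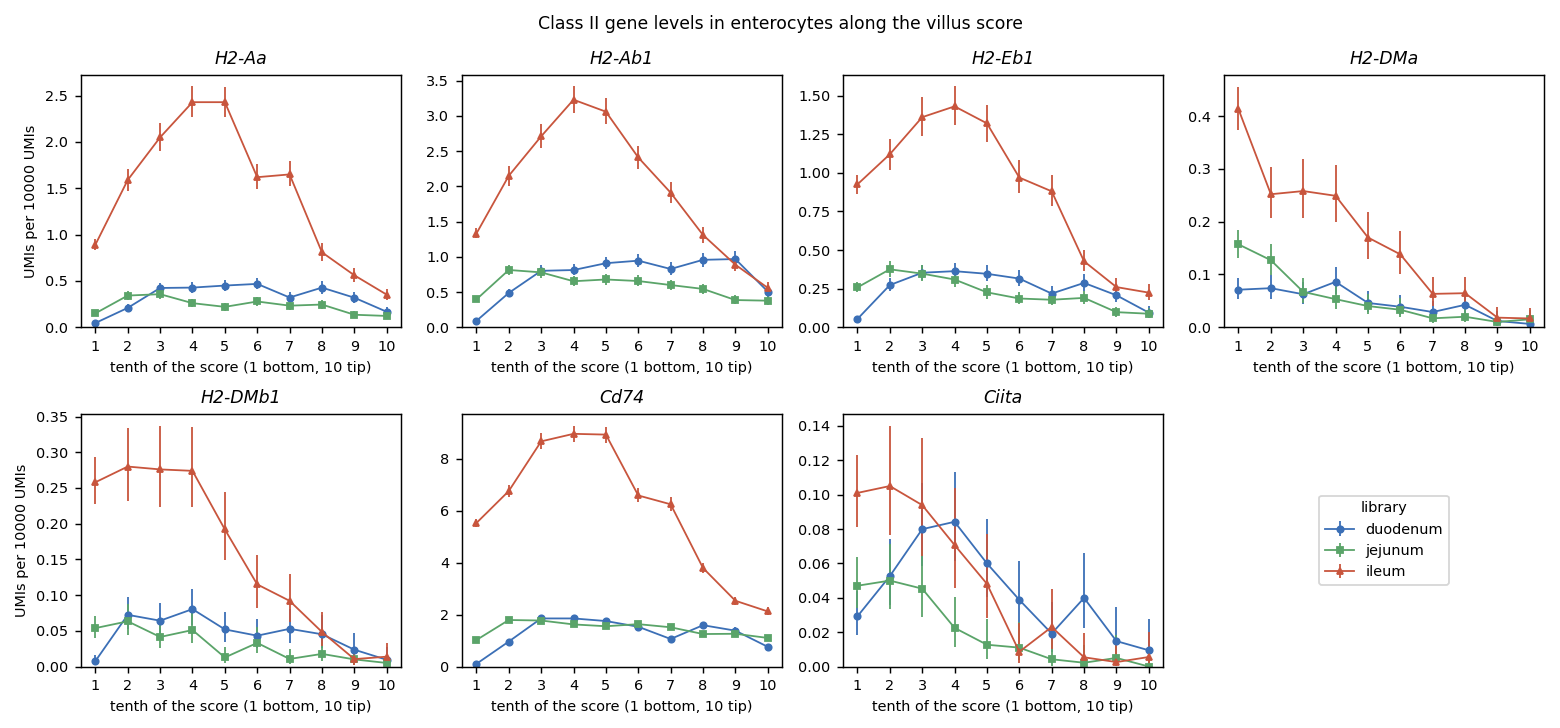
Level of each gene (UMIs per 10000 UMIs, linear axis from 0) in 10 equal bins of the villus score over enterocytes and early enterocytes together, 1 line per library with exact 95% Poisson intervals. In the ileum Cd74, H2-Aa and H2-Ab1 peak in bin 4, at 8.95, 2.43 and 3.23, and H2-DMa is highest in the lowest, at 0.413.

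Over 3 equal groups of the same score (bottom, middle and top), 3 of the 7 genes were lower at the top than at the bottom. Of 11445 genes 33.7% were, so the count lay near that background. Ciita stood at 0.0528, 0.0465 and 0.101 UMIs per 10000 in the bottom group of duodenum, jejunum and ileum and at 0.0220, 0.00284 and 0.00653 in the top group, a difference of -2.44 ± 0.49 on the log2 scale (edgeR, adjusted p = 0.00277). H2-DMa stood at 0.0685, 0.120 and 0.336 at the bottom and at 0.0212, 0.0142 and 0.0327 at the top (-2.30 ± 0.29, adjusted p = 0.000286). Bottom and top did not overlap for either gene, but how many of all genes did likewise was not counted. In this contrast 28.7% of all genes were called higher and 33.7% lower, so nothing is drawn from the lack of overlap. H2-DMb1 gave -1.61 ± 0.41 (adjusted p = 0.00823), a call lost without jejunum (adjusted p = 0.0641), without ileum (adjusted p = 0.0991) or at 20% mitochondrial UMIs (adjusted p = 0.0757). H2-Eb1 gave -0.54 (adjusted p = 0.103), and H2-Ab1, H2-Aa and Cd74 gave 0.32, 0.18 and 0.18, with the sign of the latter 3 turned when TMM scaling was left out (-0.16, -0.29 and -0.29), none of them past the threshold. H2-DMa was already lower in the middle than in the bottom group (-0.89 ± 0.26, adjusted p = 0.0287), 1 of 7 where 18.8% of genes were, and higher in the middle than in the top group (1.41 ± 0.30, adjusted p = 0.0252), 1 of 7 where 7.48% were. The first of these was lost without jejunum (adjusted p = 0.255), without ileum (0.121), at 20% mitochondrial UMIs (0.0576) and without cells holding immune UMIs (0.0596), and the second without jejunum (0.176) or ileum (0.158). Without TMM scaling the median of all genes from bottom to top moved from -0.10 to -0.56. All early enterocytes but 1 fell in the bottom group, and their markers are among the bottom genes of the score. In enterocytes alone, Cd74 stood at 8.22, 7.87 and 3.06 in the bottom, middle and top group of the ileum. It stood at 1.76, 1.56 and 1.22 in the jejunum, so that neither segment peaked in the middle. Duodenal Cd74 did (1.49, 1.64 and 1.26), and ileal H2-Ab1 gave 2.65, 2.70 and 0.999.

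The marker lists of the presenting cells stood low in enterocytes relative to their level in those cells. The 9 B cell markers summed to 0.0122%, 0.0126% and 0.198% of their level in B cells, where Cd74 in enterocytes was at 1.59%, 1.42% and 5.05% of that in B cells. The 10 macrophage markers summed to 0.0207%, 0.0213% and 0.0713% against 2.06%, 0.534% and 3.79% for Cd74, and the 10 dendritic cell markers to 0.0412%, 0.0309% and 0.113% against 0.616%, 0.794% and 1.97%. Defining markers were at 0 in the duodenum (Cd22, Bank1, Csf1r, Flt3 and Clec9a among them) and the jejunum (Cd22, Fcmr, Flt3 and Clec9a among them), and each of these had at least 1 UMI in the ileum. Cd14 stood apart from the other macrophage markers, at 0.536%, 2.32% and 3.90%. At least 1 UMI of a wider list of immune markers, T cell and IgA genes included, was found in 53.2%, 62.1% and 63.8% of enterocytes. The 1506, 1259 and 1478 enterocytes with no such UMI held Cd74 at 1.60, 1.51 and 6.57 UMIs per 10000, close to all enterocytes. The part of immune RNA in the class II levels was not tested. In ileal goblet cells dendritic cell RNA at the level of that list (0.169%) would give Cd74 at 0.528 against the 0.709 measured. The same estimate overshot the measured Cd74 of T cells, so this margin is uncertain. Ileal goblet cells with no immune UMI held Cd74 at 0.906. Jejunal early enterocytes with no such UMI held Cd74 at 0.478, against 0.954 in all of them.

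**Figure D5:**
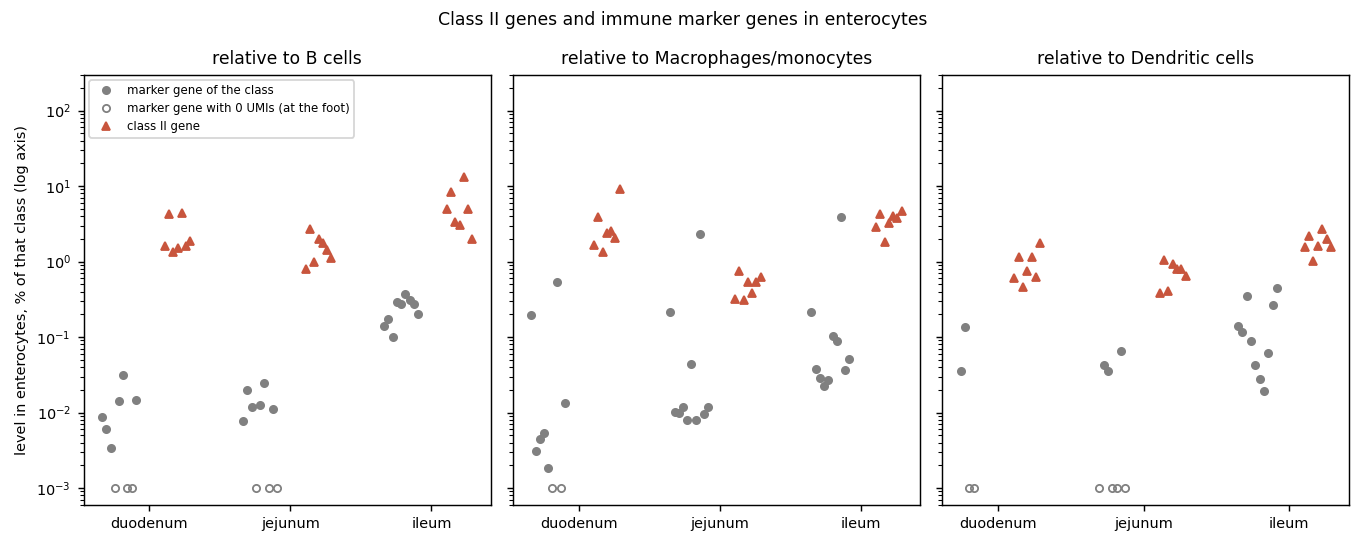
Level in enterocytes as a percent of the level in B cells, macrophages/monocytes and dendritic cells (log axis) for the markers of that class (circles, open at 0 UMIs, markers with at least 10 UMIs in that class) and for the 7 class II genes (triangles), by library. Cd74 stood at 1.59%, 1.42% and 5.05% of B cells and the B cell list at 0.0122%, 0.0126% and 0.198%.

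Of 33 other genes of class II presentation, 31 were measured. In early enterocytes 15 were lower than in enterocytes and 0 higher by edgeR (median log2 difference -0.82, against -0.26 over all genes), and 0 were higher at an unadjusted p under 0.05. The shares over all genes were 24.4% lower and 15.8% higher. In goblet cells 13 were lower and 1 higher (median -0.82 against -0.30), where 26.2% and 13.4% of all genes were. In B cells 11 were higher and 9 lower, where 25.5% and 35.4% of all genes were.

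The other measured class II region genes were near 0 in enterocytes. H2-Oa and H2-Ob, which encode the inhibitor of DM, H2-DMb2 and H2-Eb2 gave between 0 and 4 UMIs each in the duodenum and jejunum and between 6 and 27 in the ileum. In B cells H2-DMb2 was at 4.15, 4.33 and 4.56 UMIs per 10000, above H2-DMb1 at 1.24, 1.69 and 1.12, whereas ileal enterocytes had H2-DMb1 at 0.148 and H2-DMb2 at 0.00613. The pair thus stood in opposite order in the 2 types. All 4 genes were higher in B cells, by 8.87 to 9.85 on the log2 scale (edgeR, adjusted p between 1.37e-13 and 6.63e-12). The costimulatory genes Cd80, Cd86 and Cd40 gave 0 to 7 UMIs each in the enterocytes of a library.

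Genes of lysosomal processing were expressed throughout. Ctss, the cathepsin that trims the invariant chain, stood at 1.87, 1.14 and 1.76 UMIs per 10000 in duodenal, jejunal and ileal enterocytes and was lower in goblet cells by 3.60 ± 0.37 (edgeR, adjusted p = 5.37e-09). Lgmn, an asparaginyl endopeptidase, was at 1.08 in ileal enterocytes, 4.29-fold over duodenum (4.00 to 4.61) and 4.42-fold over jejunum (4.13 to 4.74), and lower in early enterocytes by 3.08 ± 0.52 (adjusted p = 2.26e-05). Lgmn moved between segments about as far as Cd74.

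Of the genes of class II transcription and interferon signalling with enough UMIs, only Socs1 stood past 2-fold higher in ileal than in duodenal enterocytes. Rfx5, the DNA-binding subunit of RFX, stood at 0.179-fold of the duodenum (0.0987 to 0.303) and 0.370-fold of the jejunum in ileal enterocytes, on 16 UMIs. Irf1 was at 0.780-fold and Ifngr1 at 1.52-fold. Ifng itself had 0, 0 and 5 UMIs in enterocytes. Over the whole list, lysosomal and costimulatory genes included, 22 of the 31 genes had enough UMIs. In ileal against duodenal enterocytes 3 of them stood past 2-fold higher (Lgmn, Socs1 and Cd274). Another 4 stood past 2-fold lower (Rfx5, Ctsb and Ctsl among them). Of all genes 13.5% and 17.5% did, so both counts lay near that background. Up the villus Rfx5 fell with Ciita (-1.54 ± 0.37, adjusted p = 0.00683), while Cd274, which encodes PD-L1, was higher at the top, as 28.7% of all genes were (2.02 ± 0.46, adjusted p = 0.00505), as were Jak2 (1.65 ± 0.15), Lgmn (1.37 ± 0.21), Socs1 (1.29 ± 0.24), Rfxank (1.13 ± 0.15) and Irf1 (0.90 ± 0.22).

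The genes whose levels most resembled the mean of H2-Aa, H2-Ab1, H2-Eb1 and Cd74 over 19 epithelial sums, among 5749 genes, were Cubn (Pearson r = 0.846), Mep1a (0.845), Mgat4c (0.825), Slc51a (0.821), Aspa (0.809), Ptprd (0.808), Relb (0.806), Slc10a2 (0.799), Cux1 (0.799) and Marveld2 (0.794). Cubn encodes the receptor for vitamin B12 bound to intrinsic factor, Slc51a and Slc10a2 are bile acid transporters of the ileum, and Relb is an NF-kappa B subunit. Over the 12 sums without ileum, Cubn kept 0.85 and Relb 0.801, whereas Slc10a2 dropped to 0.633 and Mgat4c to 0.631. Relb stood at 0.707, 1.04 and 1.96 UMIs per 10000 in duodenal, jejunal and ileal enterocytes, and Cubn at 0.860, 1.93 and 3.51. The sums share 3 libraries, and the values describe likeness only.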

How the data were processed

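Droplet single-cell libraries of 3 segments were deposited as raw UMI counts per gene and cell; per the labels the authors used Cell Ranger 3.0.2 on GRCm38 (mm10). Cells were kept by the study's limits of 200 to 6000 genes, 800 to 50000 UMIs and a mitochondrial share up to 40%. Cells were clustered in Seurat 5.3.0 (anchor integration, 2000 variable genes without the 7 members, 30 components, resolution 0.8, mixed clusters again at 0.5), giving 30 clusters named by marker lists; the naming rule was settled after the clusters were seen, and names rebuilt here may differ from the study's. Doublet calling marked 0, 0 and 146 cells (1.81% of ileum), so in duodenum and jejunum it removed none. Libraries shared 4, 5 and 12 barcodes.

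UMIs were summed per library and type; sums of at least 10 cells entered edgeR 4.0.16 (TMM, quasi-likelihood test, library as block, Benjamini-Hochberg, threshold 0.05). An SE is the log2 difference over the square root of F. Segments were compared with exact Poisson intervals, past 2-fold with at least 50 UMIs in both sums together. Intervals cover counting error only. The whole fit was tested on simulated data.

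The members and gene lists were chosen with earlier results of these data known. Named genes were the members, the listed pathway genes and the 10 most alike; marker genes, clusters and single cells were named after their values were seen. Some genes of these lists are counted but their own values are not reported here. The middle group of the villus score, clusters left out and cells left out were alternatives added after seeing the data.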

Additional observations from a re-analysis of the deposited data

How the results depend on the processing

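Over the 6 epithelial types, 24 member differences were called lower than in enterocytes. This count fell to 14 without TMM factors and 10 without the library block. It was 15 without epithelial cells holding immune marker UMIs, where 3 calls were lost and tuft and Paneth cells were too few to be tested. Leaving out 1 library, it lay between 13 (without duodenum) and 22 (without jejunum). The immune calls (24 higher), the villus groups (3) and the genes past 2-fold over both other segments (6) stayed within 1.5 times under every alternative run. The pathway calls (183) were counted again only without TMM factors (184) and without a filter on low counts (183). Without TMM factors the share of calls that were higher rose in most contrasts, in early enterocytes from 2047 higher and 3157 lower to 3306 and 1448, in goblet cells from 1739 and 3394 to 2198 and 2404, in B cells from 3298 and 4578 to 5482 and 2523, and fell from bottom to top from 3287 and 3853 to 1834 and 5517; the median over all genes moved from -0.26 to 0.16, -0.30 to -0.08, -0.37 to 0.64 and -0.10 to -0.56.

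The summed fold over duodenum (3.53) moved to 2.97 with non-mitochondrial UMIs, 3.02 at 20% mitochondrial UMIs, 3.67 without integration, 4.63 as a mean over cells and 3.89 without the top 1% of cells; that over jejunum (4.00) moved to 3.38, 3.65, 4.25, 4.85 and 4.38, to 4.39 without cells holding immune UMIs and to 3.91 at resolution 1.2. The share of enterocytes with a class II UMI (52.4%, 48.4% and 70.5%) was 14%, 12.7% and 38.1% thinned to 800 UMIs and 23.8%, 22.0% and 50.1% thinned to 2000.

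Of the tested differences, signs turned only for ones that passed in neither fit; the fold of Ciita in ileal over duodenal enterocytes, which has no test, ran from 0.641 to 1.53. Against enterocytes these were H2-DMb1 in early enterocytes (0.11 without TMM, and -0.87 to 0.46 leaving out 1 library), Ciita there (-0.05 without a filter, -0.13 without immune UMIs, -0.08 at resolution 1.2, -0.21 without integration, and -0.27 to 0.75 leaving out 1 library, with -0.15 without ileum), H2-DMa in ISC/proliferating cells (0.88 without TMM, 0.20 with sums of 3 cells, 0.02 at 20% mitochondrial UMIs, 0.14 without integration, 0.30 without duodenum, 0.27 by DESeq2) and H2-Aa in IgA B cells (-0.16 without TMM, -1.18 with sums of 20 cells, and -0.68 to 0.92 leaving out 1 library). From bottom to top they were H2-Ab1 (-0.16 without TMM, -0.09 to 0.62 leaving out 1 library), H2-Aa (-0.29, -0.15 to 0.49, and -0.13 without the block) and Cd74 (-0.29, -0.06 to 0.51, and -0.16 without the block), and from bottom to middle H2-Eb1 (-0.00 without TMM, and -0.02 to 0.46 leaving out 1 library) and H2-DMb1 (0.27 at 20% mitochondrial UMIs). The causes were not tested. The other single-gene values pooled tested differences with untested segment folds and shares of cells. Of them 1300 stayed the same, 91 lost the threshold, 59 gained it and 97 moved. A tested difference stayed the same if it kept direction and side of the threshold. An untested value stayed the same if it lay within its main counting interval, and moved if not. The 35 duodenal T cells, 11 macrophages and 11 Paneth cells limit what their sums can show.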
